A study of Mus musculus with 4 samples.

Results

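Trem2-type tissue macrophages of the mouse ovary are cells that carry the C1q genes of resident macrophages together with Trem2, Pf4, Cd63, Fabp5, Mt1 and Igf1. They were chosen by UMIs, the transcript molecules counted in a cell. A member had at least 3 UMIs of C1qa, C1qb and C1qc together and more UMIs of those 6 genes than of Cx3cr1, Adgre4, Ace, Slc8a1, Klra2 and Gpr141 together. It also had under 10 UMIs of 5 peritoneal macrophage genes, under 5 of Cd209a, Mgl2 and Clec10a, and at most 1 of Cd79a and Ms4a1. This rule found 85 of 4918 kept cells, 61 in the gonadotropin group and 24 in the untreated group. A kept cell was assigned to 1 mouse by its hashtag, showed at least 500 genes and had under 10% mitochondrial UMIs.

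The gonadotropin group was 5 female C57BL/6J mice aged 10 to 12 weeks, whose ovaries were taken 48 h after the hormone, and the untreated group was 5 such mice given saline. Gonadotropins are the pituitary-type hormones that drive follicle growth and ovulation. Viable CD45+ leukocytes were sorted from the dissociated ovaries, each mouse's cells were tagged with a separate hashtag antibody, and a group's 5 mice went into 1 droplet library. Which gonadotropin was given, and its dose, is not given in the sources used here. Treatment, pool and library therefore cannot be told apart. The mouse was the replicate, and the mice of a group shared their staining and library.

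Resident macrophages of the ovary live among the stroma, the follicles and the corpora lutea, where they clear dying granulosa and luteal cells. Trem2 is a surface receptor for lipids and cell debris that signals through the adaptor Tyrobp, and it marks macrophages that take up lipid in many tissues. C1q opens the classical complement pathway and also coats dying cells, while Pf4 is a chemokine made by platelets and by many resident macrophages.

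The 10 genes with the largest ratio over the other kept cells were Ms4a7, C1qa, C1qc, C1qb, Trem2, Mt1, Igf1, Pf4, Fabp5 and Aif1, in that order. Of the markers fixed for the type, Ms4a7, C1qa, Trem2 and Pf4 were therefore among them, and the rest of those 10 were genes of the rule apart from Aif1, a macrophage actin-binding protein. Ms4a7, a membrane protein of resident macrophages that the rule did not use, had 1005 CPM in Trem2-type cells, CPM being the UMIs of a gene scaled to a fixed total for the summed cells, and 7.77 CPM in all other kept cells. Receptors shared by most macrophages were found in part of the cells. After thinning each cell to 900 UMIs, Csf1r, the growth factor receptor of macrophages, was seen in 30.6% of Trem2-type cells and in 0.123% of B cells, while the unthinned shares were 50.6% and 1.19%. Adgre1, which encodes the F4/80 antigen, was seen in 22.4% of the thinned Trem2-type cells and in 0.738% of thinned B cells. The macrophage markers thus stood above the background that free RNA gives in B cells. The type's own markers were shared with the other macrophages. Ms4a7 was seen in 72.9% of Trem2-type, 76.2% of Cx3cr1-type and 4.08% of peritoneal-type cells, and after thinning in 48.2%, 33.3% and 0%. Trem2 was seen in 56.5%, 52.4% and 46.9% in the same order, and after thinning in 37.6%, 23.8% and 2.04%. Markers of a known Lyve1 and Timd4 resident subset were scarce, with Lyve1 in 1 of 85 cells and Timd4 in 0 of 85, which allows a share of up to 3.53% of cells with a UMI. At this depth a low transcript can be missed, so the limit is not one on cells that express the gene. That limit and the binomial intervals below cover counting error only.

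The C1q sum of the members ran from 4 to 157 UMIs with a median of 28, and no member stood at the limit of 3. The sum of the 6 Trem2-set genes exceeded that of the Cx3cr1 set by a median of 8 UMIs. It exceeded it by 1 UMI in 3 members, and 3 cells just outside had equal sums. Among hashtag calls, 106 barcodes met the gene sums and filters, of which 10 were hashtag doublets and 11 carried no called hashtag. Barcodes without a called hashtag made up 10.4% of those 106, against 1.38% of the 6468 barcodes in the table. A further 32 single-hashtag barcodes met the sums but had under 500 genes. The libraries shared 4 barcode sequences, and 0 members were among them.

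Trem2-type cells were shallow and almost free of Malat1, a long noncoding RNA that stays in the nucleus. The median Trem2-type cell held 2121 UMIs and 893 genes, against 7390 UMIs in the median other kept cell, or 28.7% of it. Malat1 was at 0 in 56 of the 85 members, and 78 of them had under 0.5% Malat1 among their UMIs (91.8%, 95% exact binomial interval 83.8 to 96.6). In all other kept cells 61 of 4833 lay under that level (1.26%, interval 0.967 to 1.62). At the Malat1 share of the other cells, a member of median depth would have held about 49.1 Malat1 UMIs. Such cells were also 5 of 13 Cd209a-type cells, 6 of 21 Cx3cr1-type macrophages and 4 of 49 peritoneal-type macrophages. The members were 56.1% of the 139 kept cells with so little Malat1.

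**Figure D1:**
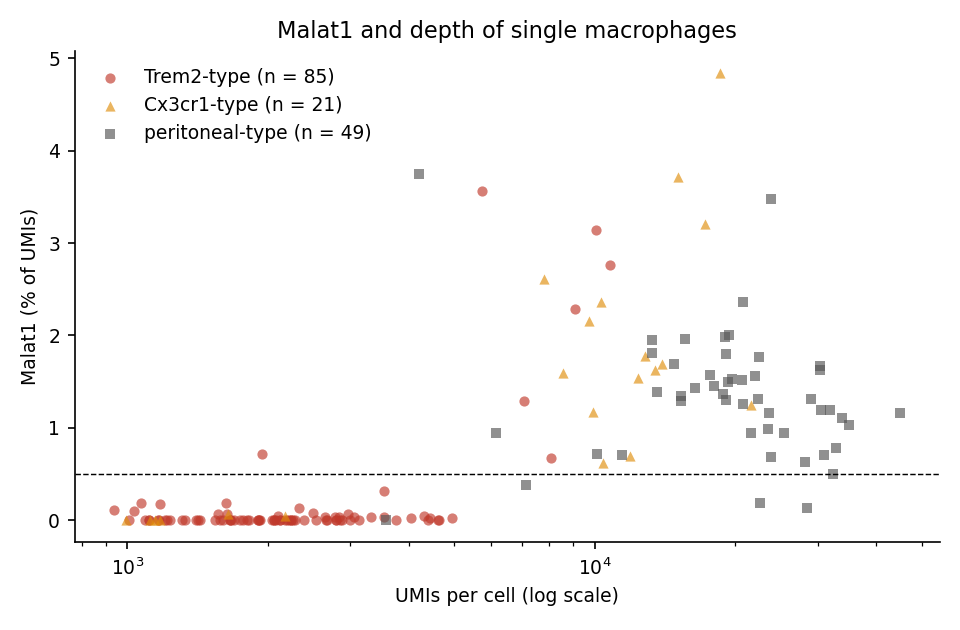
Malat1 share of UMIs (vertical axis, percent) against UMIs per cell (horizontal, log scale) for single Trem2-type, Cx3cr1-type and peritoneal-type cells, with a dashed line at 0.5%. Of the Trem2-type cells, 78 of 85 lie under the line and all of these have under 5000 UMIs, while 45 of the 49 peritoneal-type cells lie on or above it.

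Genes that span a long stretch of the genome were also lower in these cells. Among genes of up to 10 kb the median log2 ratio of Trem2-type over all other kept cells was 0.40, while it was 0.02 from 10 to 30 kb, -0.66 from 30 to 100 kb and -1.14 above 100 kb. In Cx3cr1-type cells the same medians stayed between -0.03 and 0.16, and in peritoneal-type cells between -0.25 and 0.00. Whether the loss of nuclear and long-gene RNA belongs to these macrophages or to the state of the cells at capture was not tested, and every level below is a share of the UMIs that remained.

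The other 7 members held at least 0.5% Malat1, and they differed among themselves. In 3 of them, 2 from gonadotropin mouse 2 and 1 from gonadotropin mouse 4, 18, 113 and 55 UMIs of T and NK cell markers were found with only 4, 8 and 6 C1q UMIs and no Csf1r. Those 3 cells held 39, 18 and 12 ferritin UMIs in the same order, so their counts go against the macrophage label. A pair of deep cells, 1 from gonadotropin mouse 4 and 1 from untreated mouse 1, held 157 and 147 C1q UMIs with 2.77% and 3.15% Malat1. Ferritin took 0.81% and 1.54% of their UMIs, against a median of 3.40% in the 78 members with little Malat1. The remaining 2, both from gonadotropin mouse 2, held 8.83% and 1.49% ferritin. Some counts below are also given for the 78 members with little Malat1.

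Ferritin was among the most abundant transcripts of the cells. Fth1 and Ftl1, the heavy and light chains of ferritin, which stores iron, made up 2.29% and 1.69% of all UMIs of Trem2-type cells, against 0.180% and 0.0902% in all other kept cells. Apoe, the lipid-carrying apolipoprotein, took 2.16% of Trem2-type UMIs and 0.0644% of those of the other cells. Of all genes, only Tmsb4x, a small actin-binding protein, took a larger share than Fth1, with 2.85%. Each 3′ UMI stands for 1 captured transcript, so the shares were not divided by gene length. Genes of short span were higher in these cells than long genes as a class, and the part of gene span in these shares was not tested.

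In the gonadotropin mice 1 to 5, Fth1 stood at 30311, 25050, 41337, 11613 and 21318 CPM in Trem2-type cells. In the untreated mice 1 to 5 it stood at 13142, 22842, 25171, 23539 and 23949 CPM. The groups overlapped throughout, and the lowest value came from gonadotropin mouse 4. All 85 members held Fth1 UMIs.

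Of 17 heme and iron genes, 15 reached 20 CPM on either side, and 14 of these were at least 2-fold higher in Trem2-type cells than in all other kept cells. Over all genes that reached this level 13.3% of 7325 were so, and another 27.9% were at least 2-fold lower. Folds are ratios of CPM plus 10, and since the rule made this contrast, they carry no test. The median log2 ratio was 2.46 for the list and -0.29 over all genes. Hmox1, which splits heme, had 452 CPM in Trem2-type cells and 10.6 CPM in the others, and Blvrb, which reduces the biliverdin that heme yields, had 654 and 59.2 CPM. Slc40a1 encodes ferroportin, the only known iron exporter, and had 360 CPM in Trem2-type cells and 4.74 CPM in the others. Spic, a transcription factor of iron-recycling macrophages, was seen in 8 of 85 cells with 74.6 CPM, against 1.23 CPM in the others. Spic was not particular to Trem2-type cells, since 3 of 21 Cx3cr1-type and 0 of 49 peritoneal-type cells held it. After thinning it was seen in 3.53% of Trem2-type and 4.76% of Cx3cr1-type cells, which were 3 cells and 1 cell. Tfrc, the transferrin receptor that brings iron in, was the exception to the 2-fold rise. It had 21.9 CPM in Trem2-type cells and 23.6 CPM in all other kept cells. Hemoglobin RNA was nearly absent, since Hbb-bs, a beta globin, had 35.1 CPM in Trem2-type cells and 3140 CPM in all other kept cells. This was not particular to Trem2-type cells. Red cell markers as a list summed to 43.9 CPM in them and to 29.7 CPM in Cx3cr1-type cells.

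The iron genes also set Trem2-type cells apart from Cx3cr1-type cells, which share the C1q genes. Against Cx3cr1-type cells 11 of 15 iron genes were at least 2-fold higher in Trem2-type cells. Of all 7080 genes at that level 11.7% were so, while 29.7% of all were at least 2-fold lower. In Trem2-type cells Hmox1 had 297, 475, 340, 107 and 169 CPM in gonadotropin mice 1 to 5, and 1976, 227, 0, 284 and 2740 CPM in untreated mice 1 to 5. The 2 highest values came from untreated mice with 2 and 3 members.

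Genes of the oxidative stress response were high beside the iron genes, and Hmox1 belongs to both lists. Outside the rule, 6 of the 7 list genes that reached 20 CPM were at least 2-fold higher in Trem2-type cells than in all other kept cells. Against Cx3cr1-type cells 5 of 8 were so. Over all genes at that level the shares were 13.3% and 11.7%. Prdx1, which removes hydrogen peroxide, had 2432 CPM in Trem2-type cells, against 381 CPM in Cx3cr1-type and 183 CPM in all other kept cells. Gclm, a subunit of the enzyme that starts glutathione synthesis, had 110 CPM in Trem2-type cells and 22.9 CPM in the others, while Nqo1 was at 0 UMIs in the members. Several of these genes are known targets of the transcription factor Nrf2, whose own gene Nfe2l2 had 281 CPM in Trem2-type cells, 421 CPM in Cx3cr1-type cells and 101 CPM in all other kept cells.

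The core letters of the antioxidant response element that Nrf2 binds, TGACNNNGC on either strand, stand in the 250 bases before the start site of 4 of the 8 oxidative stress genes with a RefSeq promoter, Mt2, Gclm, Txnrd1 and Prdx1. Of the 27025 genes with such a promoter, on build GRCm38.p6, 11.5% hold these letters. They were not particular to this list. Of the other lists searched, 4 of 15 lysosome and 4 of 13 heme and iron genes hold them. In the lipid list 0 of 13 and in the MHC class II list 0 of 5 do. The stretches are shown for Prdx1 (chr4:116685456-116685484, plus strand) and Gclm (chr3:122245413-122245441, plus strand), since both genes carry the contrast with Cx3cr1-type cells, and the capitals mark the match, which is the reverse complement in each. A match of letters is not a measured binding site.
Prdx1: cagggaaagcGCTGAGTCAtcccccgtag
Gclm: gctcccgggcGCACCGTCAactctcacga

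Lysosomal proteases were high as a group. Of 19 cathepsin and lysosome genes on the list, 18 reached 20 CPM, with a median log2 ratio of 2.44 over all other kept cells. At least 2-fold higher in Trem2-type cells than in those cells were 16 of the 18, against 13.3% of all genes. Ctsb, a cysteine protease of the lysosome, had 2414 CPM in Trem2-type cells and 155 CPM in the others. Cst3, the secreted inhibitor of such proteases, had 3982 and 571 CPM, and Lgmn, the asparaginyl protease of endosomes, had 645 and 41.7 CPM. Against Cx3cr1-type cells 2 of 18 were at least 2-fold higher, near the 11.7% of all genes. These were Ctsd with 1646 against 604 CPM and Ctsl with 211 against 69.4 CPM. The lysosomal programme was thus high in C1q-high cells of both kinds.

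The letters GTCACGTG, part of the CLEAR element through which TFEB and its relatives act on lysosomal genes, stand in the 250 bases before the start site of Ctsa, Ctsd, Lgmn and Lamp1, or 4 of the 15 list genes with a RefSeq promoter. They stand in 2.11% of all 27025 genes. The centre of the element, TCACGTGA, which overlaps these letters, was found in 2 of the 15, Ctsa and Ctsd, and in 0.907% of all genes. The stretches below show how close the match lies to the start site, from 98 bases before it in Ctsd to 14 in Ctsa, with the match, or its reverse complement CACGTGAC, in capitals. Ctsd holds a further match 245 bases before its start. Positions on GRCm38.p6 are chr2:164833749-164833772 (plus strand) for Ctsa, chr7:142387908-142387935 (minus strand) for Ctsd, chr12:102439126-102439153 (minus strand) for Lgmn and chr8:13159123-13159150 (plus strand) for Lamp1.
Ctsa: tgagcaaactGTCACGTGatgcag
Ctsd: gcccgcgtctCACGTGACccgttgaggg
Lgmn: tggaatgtctGTCACGTGgtccatttta
Lamp1: tgccgactggCACGTGACcacatcacgt

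Genes of lipid handling followed the same order. Of 18 list genes outside the rule that reached 20 CPM, 14 were at least 2-fold higher in Trem2-type cells than in all other kept cells. Against Cx3cr1-type cells 5 of the 18 were so. All genes at that level gave 13.3% and 11.7%. Apoe stood at 29272, 9295, 17351, 26777 and 21183 CPM in gonadotropin mice 1 to 5, and at 41230, 55140, 23320, 9662 and 11200 CPM in untreated mice 1 to 5. The spread within each group was wider than the distance between them. After thinning, Apoe was seen in 94.1% of Trem2-type cells and in 12.6% of B cells, against 96.5% and 41.1% unthinned. It was not particular to Trem2-type cells, since 95.2% of thinned Cx3cr1-type and 85.7% of thinned peritoneal-type cells held it. Its median share of UMIs was 1.71% in Trem2-type, 1.22% in Cx3cr1-type and 1.65% in Cd209a-type cells. Plin2, which coats lipid droplets, had 702 CPM in Trem2-type cells, 253 CPM in Cx3cr1-type cells and 40.1 CPM in all other kept cells. Lgals3, galectin-3, had 2098, 317 and 131 CPM in the same order. Gpnmb and Spp1, late markers of lipid-laden macrophages, were low at 26.3 and 52.7 CPM, in 3 and 6 of the 85 cells. Abca1 and Abcg1, the cholesterol exporters, had 180 and 92.2 CPM in Trem2-type cells, close to the 163 and 134 CPM of Cx3cr1-type cells.

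Receptors for dying cells and for modified proteins were present as well. Of 14 genes of the list that reached 20 CPM, 11 were at least 2-fold higher in Trem2-type cells than in all other kept cells, whereas 2 of 15 were higher and 5 lower by that fold against Cx3cr1-type cells, close to the 11.7% and 29.7% of all genes. Gas6, the bridge between phosphatidylserine on dying cells and the receptors Axl and Mertk, had 198 CPM in Trem2-type cells, 34.7 CPM in Cx3cr1-type cells and 0.769 CPM in all other kept cells. Axl had 167 CPM and Mertk 110 CPM in Trem2-type cells, below the 272 and 163 CPM of Cx3cr1-type cells. Stab1, a scavenger receptor, had 360 CPM in Trem2-type and 317 CPM in Cx3cr1-type cells, and Mrc1, the mannose receptor, had 531 and 431 CPM. Cd163, the receptor for hemoglobin bound to haptoglobin, was seen in 8 of 85 members.

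Of 17 resident macrophage genes on the list, 12 outside the rule reached 20 CPM on either side. All 12 were at least 2-fold higher in Trem2-type cells than in all other kept cells, against 13.3% of all genes. Against Cx3cr1-type cells 6 of 12 were so, and 11.7% of all genes. As in every list, a gene could reach 20 CPM through its level in Trem2-type cells alone. Timd4, Ednrb and Cd209f, at 0 UMIs in the members, did not enter the 12. Selenop, a secreted selenium carrier, had 1409 CPM in Trem2-type cells and 68.5 CPM in all other kept cells. Maf, a transcription factor of mature macrophages, had 615 CPM in Trem2-type cells, against 33.2 CPM in the others. Genes of newly arrived monocytes mostly lay on the other side, with 8 of 11 at least 2-fold lower, against 27.9% of all genes. Lgals3, which this list shares with the lipid genes, was the 1 gene at least 2-fold higher. Plac8 had 43.9 CPM in Trem2-type cells, 669 CPM in Cx3cr1-type cells and 703 CPM in all other kept cells, and S100a6 had 92.2, 490 and 1212 CPM. Ccr2, the receptor that brings monocytes into tissue, was seen in 8 of 85 members.

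**Figure D2:**
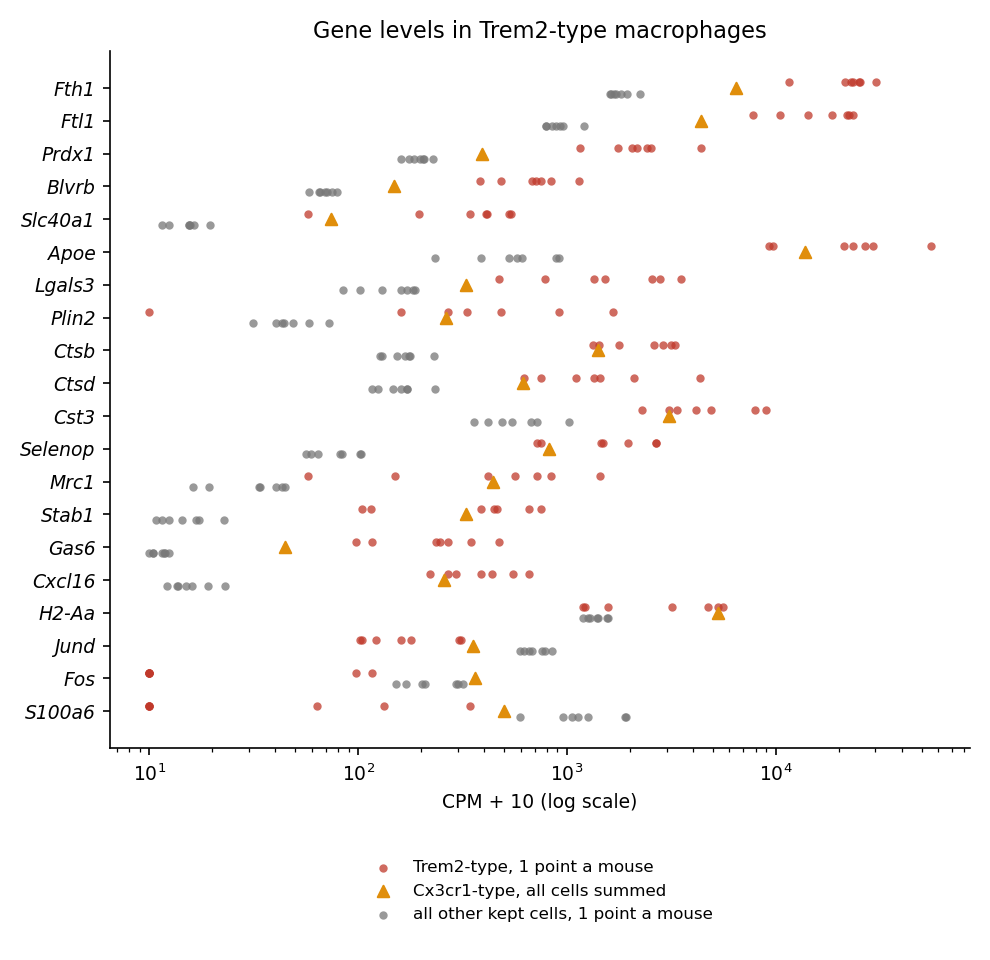
CPM plus 10 (horizontal, log scale) of 20 genes in Trem2-type cells of the 7 mice with at least 5 members (upper points), in all Cx3cr1-type cells summed (triangles) and in all other kept cells of the same mice (lower points). Fth1, Ftl1, Prdx1, Blvrb and Apoe in Trem2-type cells lie above the other cells in all 7 mice, while Jund lies below them in all 7.

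The 25 genes with the highest ratio of Trem2-type over Cx3cr1-type cells, a contrast that the rule made and that carries no test, held further members of these groups. Lgals3, Prdx1, Slc40a1, Blvrb and Gas6 were among them. So were Cstb, an inhibitor of lysosomal cysteine proteases, with 944 and 188 CPM, and Mif, a cytokine, with 461 and 34.7 CPM. Serpinb6a, an intracellular protease inhibitor, had 373 CPM in Trem2-type cells and 24.8 CPM in Cx3cr1-type cells and was higher in 7 of 7 mice than in their other kept cells. For the untreated mice among them this rests on few UMIs. Ccnd1, cyclin D1, had 198 and 24.8 CPM. Further members were Psmb6, a proteasome subunit, Mgst1, a glutathione transferase, Ranbp1, a partner of nuclear transport, and Hmgn1, a nucleosome-binding protein.

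Some of those 25 genes came from few cells. Skap1, a T cell adaptor, was seen in 3 members and Ms4a4b, a T cell membrane protein, in 4. Retnla, a secreted protein of alternatively activated macrophages, had 158 CPM from 3 members, while peritoneal-type cells had 3690 CPM. Cxcl9, a chemokine induced by interferon gamma, came from 2 members. Ccl8, a monocyte chemokine, was broader, with UMIs in 13 members and none in Cx3cr1-type cells.

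The 15 genes with the lowest ratio included the neutrophil calprotectin genes S100a8 and S100a9, at 0 and 13.2 CPM in Trem2-type cells against 897 and 1209 CPM in Cx3cr1-type cells. Neutrophil markers as a list had 10 UMIs in all members together, with S100a8, Retnlg, Lcn2, Ngp and Camp at 0. Klf4, a transcription factor of monocytes, was at 0 in the members and at 119 CPM in Cx3cr1-type cells. Mitf, Trps1, Mctp1, St8sia4, Negr1 and Frmpd4 were also among the 15. Long genes were lower in Trem2-type cells as a class, and the part of gene span in these ratios was not tested.

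Antigen presentation split the members. The summed share of H2-Aa, H2-Ab1, H2-Eb1 and Cd74, the chains and the invariant chain of MHC class II, which shows peptides to CD4 T cells, ran from 0 to 11.5% of UMIs among the 78 members with little Malat1. Banded by H2-Aa, H2-Ab1 and H2-Eb1 alone, 27 of 85 members had 0 to 2 UMIs, 34 had 3 to 20 and 24 had over 20. Over both groups together the bands had median totals of 1921, 2253 and 2161 UMIs. In the gonadotropin members depth rose with the band, with medians of 1583, 2329 and 2802 UMIs. In the untreated members the medians were 2251, 2177 and 2121 UMIs. The bands are thus not matched in depth, and the part of depth in them was not tested. Ferritin was lower in each higher band, with medians of 5.39%, 3.16% and 2.42% of UMIs. Prdx1 had medians of 0.274%, 0.127% and 0.120%, while the median C1q share was 1.36%, 1.11% and 1.51%. Bands were set after the values were seen. In the gonadotropin group 31.1%, 44.3% and 24.6% of the members were in the low, middle and high band, and in the untreated group 33.3%, 29.2% and 37.5%.

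Across single members, ferritin and C1q ran opposite to each other, with a Spearman rho of -0.32 over 85 cells and -0.50 over the 78 with little Malat1. Apoe ran with C1q (rho 0.72 over 85 cells) and Prdx1 ran with ferritin (rho 0.67). Ferritin and the total UMIs of a cell were nearly unrelated, with a rho of -0.02. These are descriptions: the cells of a group share a library, cells of a mouse share an animal, and shares of one total are tied to each other.

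**Figure D3:**
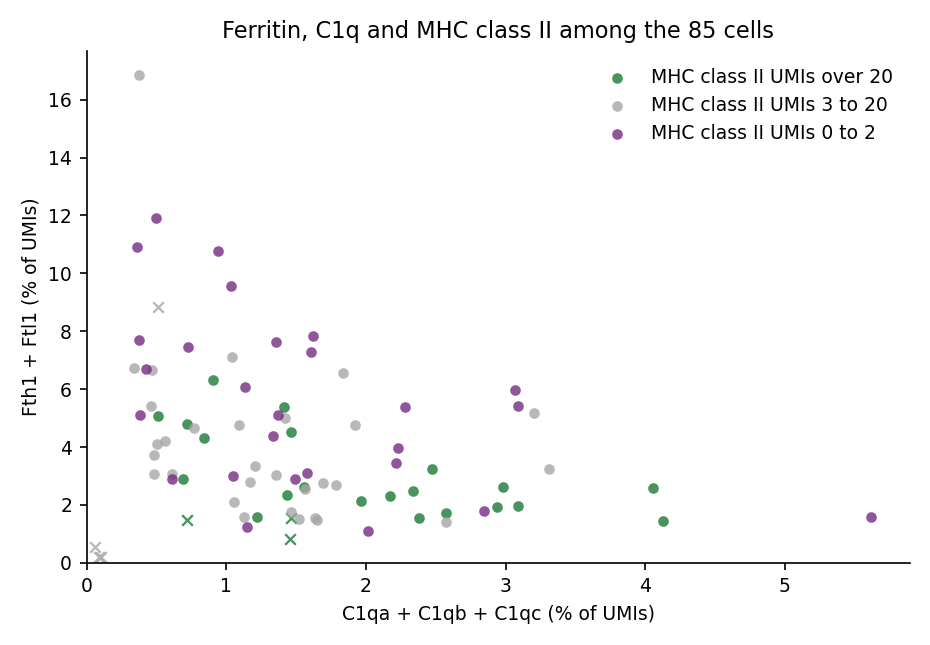
Ferritin (Fth1 plus Ftl1, vertical axis, percent of UMIs) against C1q (C1qa, C1qb and C1qc, horizontal axis, percent of UMIs) in the 85 Trem2-type cells, colored by UMIs of H2-Aa, H2-Ab1 and H2-Eb1, with crosses for the 7 cells with at least 0.5% Malat1. Cells with 0 to 2 MHC class II UMIs hold a median of 5.39% ferritin, against 2.42% in cells with over 20.

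As a list, MHC class II and co-stimulatory genes had 4 of 10 members at least 2-fold higher in Trem2-type cells than in all other kept cells. Those cells were largely B cells and so carry class II too. Against Cx3cr1-type cells 0 of 10 were higher by that fold. The shares over all genes were 13.3% and 11.7%. H2-Aa had 3134 CPM in Trem2-type cells and 5256 CPM in Cx3cr1-type cells. Ciita, the master regulator of class II, had 43.9 and 248 CPM, and Cd86, a co-stimulatory ligand, had 136 and 188 CPM.

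Chemokines were selective. Outside the rule, 9 of 11 that reached 20 CPM were at least 2-fold higher in Trem2-type cells than in all other kept cells. Of all genes 13.3% were so. Cxcl16, a membrane-bound chemokine and scavenger receptor, had 356 CPM in Trem2-type cells, 248 CPM in Cx3cr1-type cells and 5.43 CPM in all other kept cells. Ccl12, a ligand of Ccr2, had 105, 34.7 and 1.03 CPM. Il6 and Ptgs2, inflammatory products, were at 0 UMIs in the members, and Il1b was seen in 3 of 85. Among growth factors outside the rule, Vegfb had 87.8 CPM in Trem2-type cells and 10.5 CPM in the others, while Vegfa, the main angiogenic factor of the ovary, was at 0 UMIs.

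Cell division genes were detected in part of the members. Of 15 list genes that reached 20 CPM, 12 were at least 2-fold higher in Trem2-type cells than in all other kept cells. With all members, 13.3% of all genes were so. The count was 14 of 15 with the 78 members of little Malat1. No share over all genes is given for those 78 members, here or for their counts below. Stmn1, a microtubule regulator of dividing cells, had 281 CPM in Trem2-type cells and 49.9 CPM in the others, and Mki67, the proliferation marker, had 83.4 and 16.1 CPM in the same order. At least 5 UMIs of the list were found in 18 of 85 cells, and Mki67 itself was seen in 8. Against Cx3cr1-type cells 3 of 15 were higher by that fold, beside 11.7% of all genes, and 6 of 15 with the 78 members of little Malat1.

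Early response genes were low. Of 17 that reached 20 CPM, 13 were at least 2-fold lower in Trem2-type cells than in all other kept cells, against 27.9% of all genes, and 15 were so with the 78 members of little Malat1. Fos, which forms AP-1 with Jun proteins, had 43.9 CPM in Trem2-type cells, 352 CPM in Cx3cr1-type cells and 245 CPM in all other kept cells. Dusp1, which switches off MAP kinases, was at 0 in the members and at 109 CPM in Cx3cr1-type cells.

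RNA of steroid-making cells was present at a low level. Cyp11a1, the enzyme that makes pregnenolone from cholesterol, had UMIs in 14 of 85 Trem2-type cells and in 38 of 2439 B cells. The level was 74.6 CPM in Trem2-type cells and 5.87 CPM in all other kept cells. After thinning to 900 UMIs the shares were 4.71% of Trem2-type cells (interval 1.30 to 11.6) and 0.123% of B cells (0.0254 to 0.359). Hsd3b1, the next enzyme of that path, was seen in 5 members and Star, which brings cholesterol to it, in 3. Among the granulosa markers Fshr, Foxl2, Inha, Cyp19a1 and Amh were at 0 in the members, and stroma and endothelium markers had 2 UMIs in all. The origin of the steroidogenic RNA was not tested.

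Trem2-type cells made up 2.13%, 5.29%, 1.38%, 1.33% and 3.85% of the kept cells in gonadotropin mice 1 to 5. In untreated mice 1 to 5 they made up 0.396%, 0.923%, 1.57%, 2.70% and 0.413%. The means were 2.80% ± 1.73 in gonadotropin mice and 1.20% ± 0.967 in untreated mice (SD, n = 5 each), and the groups overlapped. The difference of 1.59 percentage points had an exact two-sided permutation p of 0.119 over 252 assignments and 0.381 after Benjamini-Hochberg adjustment over 4 shares, where 0.00794 was the smallest p possible. It was larger than the SD of the untreated mice and smaller than that of the gonadotropin mice, and it did not pass the adjusted threshold. Without gonadotropin mouse 2 it was 0.970 points, among cells with at least 1000 genes 0.826 points, and with every cell thinned to 3000 UMIs 0.556 points, each with an adjusted p above 0.05. These shares count cells after dissociation, sort and filter, so a change in other leukocytes would move them too.

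**Figure D4:**
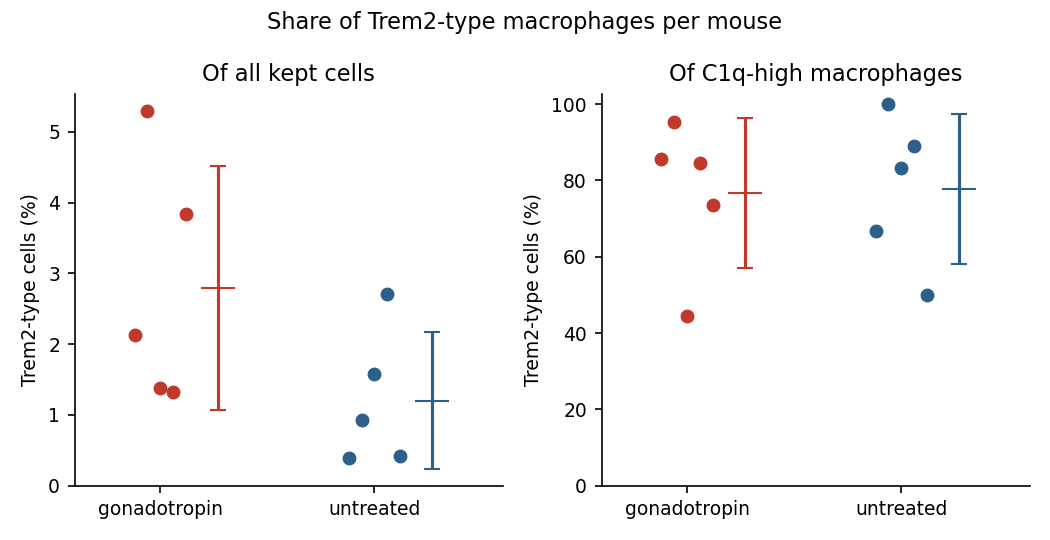
Trem2-type cells as a percentage of all kept cells (left) and of C1q-high macrophages (right), 1 point a mouse, with gonadotropin left of untreated and the mean with SD beside the points. The means on the left are 2.80% in gonadotropin mice and 1.20% in untreated mice, and the points overlap in both panels.

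Among C1q-high macrophages, which are Trem2-type and Cx3cr1-type cells together, Trem2-type cells were 85.7%, 95.2%, 44.4%, 84.6% and 73.7% in gonadotropin mice 1 to 5. They were 66.7%, 100%, 83.3%, 88.9% and 50% in untreated mice 1 to 5. The means of 76.7% ± 19.6 in gonadotropin mice and 77.8% ± 19.6 in untreated mice (SD, n = 5 each) gave an exact permutation p of 0.929, adjusted 0.929. These percentages rest on 9 to 21 cells per gonadotropin mouse and 3 to 9 per untreated mouse. Cx3cr1-type cells were 0.792% of kept cells in gonadotropin mice and 0.253% in untreated mice, with an exact permutation p of 0.190, adjusted 0.381.

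For the genes within Trem2-type cells, UMIs were summed per mouse and tested by edgeR's quasi-likelihood test in the mice with at least 5 members, 4 gonadotropin mice (1, 2, 4 and 5) and 3 untreated mice (2, 3 and 4). Of 416 genes with enough UMIs, 0 were higher and 0 lower in gonadotropin mice at an adjusted p of 0.05. The smallest adjusted p was 0.692. An unadjusted p under 0.05 was reached by 23 genes, 5.53% of those tested, and DESeq2 likewise called 0, with 17 at such a p. The median standard error of a log2 fold change was 0.40. The difference of the treatment effect between Trem2-type and Cx3cr1-type cells could not be fitted, since only gonadotropin mice 3 and 5 and untreated mouse 5 had at least 3 cells of both.

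The genes of lowest unadjusted p, outside the rule and the ribosomal proteins, are given as values, not as calls. Serpinb6a had 519, 422, 267 and 810 CPM in gonadotropin mice 1, 2, 4 and 5, against 75.6, 92.5 and 142 CPM in untreated mice 2, 3 and 4. Its groups did not overlap, with a log2 fold change of 2.25 (SE 0.56, adjusted p 0.692 by edgeR). Groups did not overlap in 9 genes with gonadotropin higher (2.16% of those tested) and in 22 with gonadotropin lower (5.29%). Crip1, a LIM protein of immune cells, had 705, 898, 320 and 573 CPM in the gonadotropin mice, against 0, 278 and 189 CPM in the untreated mice. In untreated mice 2, 3 and 4 all members together held 13221, 10806 and 21114 UMIs. The untreated values of Serpinb6a and Crip1 therefore rest on few UMIs. Ctsd, the aspartic protease of lysosomes, had 2078, 1091, 1335 and 4317 CPM in the gonadotropin mice and 1437, 740 and 616 CPM in the untreated mice, and its groups overlapped.

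In the other direction, Ndufc2, a subunit of respiratory complex I, had 260, 194, 214 and 371 CPM in the gonadotropin mice and 605, 648 and 710 CPM in the untreated mice. Cox5b, a subunit of complex IV, had 371, 299, 240 and 236 CPM in the gonadotropin mice and 529, 463 and 947 CPM in the untreated mice. Their log2 fold changes were -1.25 (SE 0.36) and -1.10 (SE 0.36), each with an adjusted p of 0.692 by edgeR. Hspa8, a constitutive chaperone, had 1076, 1162, 748 and 1315 CPM in the gonadotropin mice and 2193, 1943 and 1373 CPM in the untreated mice. For these 3 genes every gonadotropin mouse lay below every untreated mouse, without passing the test. The remaining genes so chosen were Rap1b, Clta, Fyb, Sat1, Pfdn5 and Lyn above 0, and Tmem176b, Ranbp1, Eif5a, Pfn1, Atox1, Ckb and Dynll1 below 0, all with an adjusted p of at least 0.692.

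Malat1 itself was among them, with 37.1, 6566, 13455 and 742 CPM in gonadotropin mice 1, 2, 4 and 5 and 303, 278 and 94.7 CPM in untreated mice 2, 3 and 4. Gonadotropin mice 2 and 4 had the high values, and they held 6 of the 7 members with at least 0.5% Malat1. These were the 3 members with T and NK cell markers, 2 further members of mouse 2 and the deep cell of mouse 4 with 157 C1q UMIs. With the 3 members left out the log2 fold change of Malat1 was 4.06, against 4.88 with all members, and with the 78 members of little Malat1 the gene did not reach the UMIs needed for the test. The T and NK markers summed to 67.5 to 2341 CPM in the gonadotropin mice and to 0 to 47.4 CPM in the untreated mice.

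**Figure D5:**
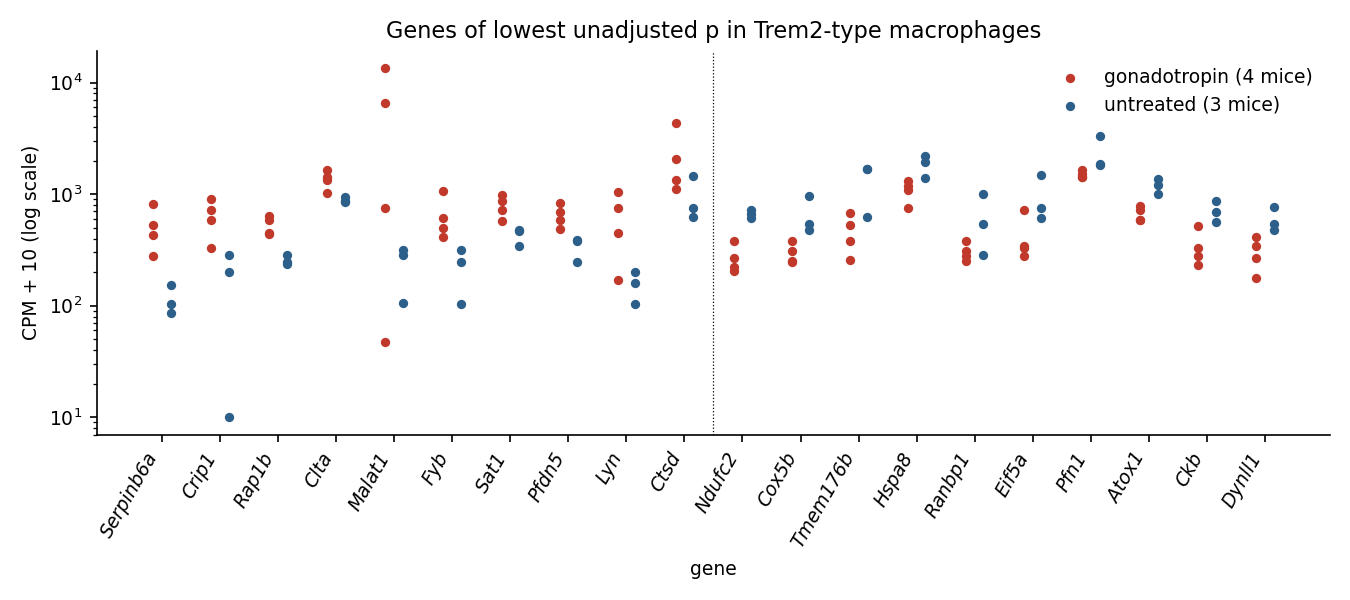
CPM plus 10 (vertical, log scale) of 20 genes in Trem2-type cells, the 10 of lowest unadjusted p in each direction outside the rule and the ribosomal proteins, 1 point a mouse, with the 4 gonadotropin mice left of the 3 untreated mice for each gene and a dotted line between genes with a log2 fold change above and below 0. Serpinb6a does not overlap between the groups, though its untreated points rest on few UMIs. The Malat1 points of the gonadotropin mice run from 37.1 to 13455 CPM, and 0 of the genes passed the adjusted threshold.

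By list, 0 genes passed in any of the lists with a tested gene. Of 13 cathepsin and lysosome genes tested, 8 had a log2 fold change above 0, with a median of 0.23, against 193 of 416 genes and a median of -0.04 over all genes tested. All 4 tested MHC class II genes, H2-Aa, H2-Ab1, H2-Eb1 and Cd74, lay below 0 with a median of -0.53. The median share of these 4 genes together in a mouse's members was 0.222% to 0.698% in the gonadotropin mice and 0.474% to 2.16% in the untreated mice, which overlapped, with an exact permutation p of 0.0857 over 35 assignments, adjusted to 0.5 over 7 measures. Ferritin medians ran from 1.54% to 4.49% in the gonadotropin mice and from 1.92% to 4.19% in the untreated mice (exact permutation p of 0.800, adjusted 0.971). The smallest p that 4 against 3 mice allow is 0.0286.

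Summed per mouse, 5 of the 37 lists did not overlap between the groups, and 2 did not with the 78 members of little Malat1. Among single genes tested, 2.16% did not overlap with gonadotropin higher and 5.29% with gonadotropin lower. Among the 5 were markers of T and NK cells, red cells and classical monocytes, all higher in the gonadotropin mice, and these overlapped with the 78 members. The 2 were the early response genes, with 482 to 1682 CPM in the gonadotropin mice and 185 to 303 CPM in the untreated mice, and the heat shock genes, with 3191 to 4683 CPM in the gonadotropin mice and 4997 to 5494 CPM in the untreated mice. With the 78 members the early response sums were 482 to 1206 CPM in the gonadotropin mice and again 185 to 303 CPM in the untreated mice. The early response list had 227 UMIs in all 85 members together. Its untreated sums rest on few UMIs, since the members of untreated mice 2, 3 and 4 held 13221, 10806 and 21114 UMIs in all. These are values without a test, picked from 37 lists after they were seen, and 0 of the 18 early response genes had the UMIs needed for the gene test.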

How the data were processed

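The deposited table holds raw UMI counts per gene and cell, with the authors' hashtag calls per cell. Per the submitters' processing notes, bcl2fastq, Cell Ranger, Seurat and mm10 were used; versions and parameters are not given in the sources used here. Kept cells held 2608262 to 7097779 UMIs per gonadotropin mouse and 2559097 to 6500466 per untreated mouse, and their Trem2-type cells 11757 to 56807 and 8393 to 21114. Doublets were left out by the authors' hashtag calls alone, so doublets within a mouse remain.

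From these counts, UMIs of the members were summed per mouse and tested with edgeR 4.0.16 (TMM, filterByExpr, quasi-likelihood test, Benjamini-Hochberg adjustment) in R 4.3.3, in mice with at least 5 members. DESeq2 1.42.0 was an alternative, and the fit was tested on simulated data. Shares were compared over mice by exact two-sided permutation in Python 3.11.15 with scipy 1.17.1. CPM ratios used a pseudocount of 10 CPM and genes at 20 CPM or more in either set. Named genes were the 10 of lowest unadjusted p in each direction, the 25 highest and 15 lowest ratios over Cx3cr1-type cells among genes with at least 100 CPM in the higher type, and members of the gene lists. The members and the lists were chosen with earlier results of these data known. Mouse numbers come from the hashtags and pair no mice between groups.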

Additional observations from a re-analysis of the deposited data

Results flagged for a closer look

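Of 31 groups of 4 or more mice examined, 2 held a mouse far from the others, where chance gives about 1 in 20. The median UMI total of Trem2-type cells was 2387 in gonadotropin mouse 4, and the nearest of the other 3 gonadotropin mice with at least 5 members had 1916. Eif5a, a translation factor, had 704 CPM in gonadotropin mouse 2, and the nearest of those mice had 334 CPM. The causes were not tested.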

How the results depend on the processing

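The difference in the share of Trem2-type cells among kept cells kept its sign under every alternative run, at 0.556 to 2.31 percentage points, and passed the adjusted threshold under none. Its unadjusted exact permutation p was 0.0317 with at least 1000 genes per cell and 0.0476 with cells thinned to 3000 UMIs, which left out 65 of the 85 members. The share among C1q-high macrophages, -1.04 points, changed sign with at least 1000 genes (1.56), with thinned cells (23.9) and with members under 0.5% Malat1 (1.51), and ran from -7.98 to 7.04 with a mouse left out. The count of genes passing between gonadotropin and untreated mice was 0 under the other alternatives and 5 with no filter on low counts, these being Arhgap15, Ccl5, Gm2682, Gm26917 and Malat1. With a mouse left out it was 0 each time, over 322 to 496 genes. Of 267 alternative values of the 20 named genes, 266 kept their direction and side of the threshold and 0 reversed. A gene had no value where it lacked the UMIs needed for the test, so values per gene ran from 8 for Ranbp1 to 15. Serpinb6a and Crip1 had none without gonadotropin mouse 1, 2 or 5. The genes were picked by low p in the same mice, so these values are no separate support for them. Malat1 passed with no filter (log2 5.01, adjusted p 1.59e-17 by edgeR). Cell division genes at least 2-fold higher than in Cx3cr1-type cells numbered 6 with members under 0.5% Malat1, against 3 with all members. The limits on Malat1 and on T and NK markers were chosen after seeing the data. The causes of these shifts were not tested.

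The fit in mice with at least 10 members was not run, as no untreated mouse had so many. The interaction with Cx3cr1-type cells and its alternatives could not be fitted. No paired analysis was possible because the mouse numbers only name the mice. Precision is limited by 2 to 20 members per mouse.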
